A study of Homo sapiens with 6 samples.

Results

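The genes described here encode the E2F transcription factors, their DNA-binding partner DP1 and the retinoblastoma pocket proteins. They were measured in BE-(2)-C, a human neuroblastoma cell line, 48 hours after cells received either an ELF4-directed siRNA or a control one. Members were the rows of the deposited table named exactly E2F1, E2F2, E2F3, E2F4, E2F7, E2F8, TFDP1, RB1, RBL1 or RBL2, which gave 10 of 26906 rows. Each group held 3 libraries of polyA-selected RNA, and no other genotype, agent or time point was labelled. Both groups were the same line grown in medium with serum, so every difference is one between siRNAs in 1 line. Neither the siRNA sequences nor whether 1 siRNA or a pool targeted ELF4 is given in the sources read. The libraries of a group were labelled as a triplicate, with nothing that ties each one to a culture of its own. A p-value here therefore describes variation among these 6 libraries and may be technical in origin.

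E2F factors bind DNA as dimers with a DP protein and control genes of the G1/S transition and of DNA synthesis. Pocket proteins, namely RB (RB1), p107 (RBL1) and p130 (RBL2), bind E2F factors and hold their targets silent until cyclin-dependent kinases phosphorylate them. E2F1, E2F2 and E2F3 are known as activators, and E2F4 as a partner of p107 and p130. E2F7 and E2F8 are known as atypical repressors that bind DNA without DP and without a pocket protein. In neuroblastoma, amplified MYCN is known for driving cells through G1, which makes the circuit a common subject of study in this tumour.

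Several of these genes are textbook targets of E2F, so their promoters were searched for the letters of an E2F site. RefSeq promoter windows (GRCh38.p14, 250 bases before to 50 after a start site) were found for 9 of the 10 genes, and E2F8 had none. The RB1 window lies 172724 bases downstream of the start of the GENCODE 29 transcript with the longest coding sequence, so the promoter of that transcript was not examined. The letters TTTCCCGC, TTTCGCGC, TTTGCCGC and TTTGGCGC, on either strand, were present in 5 genes (E2F1, E2F2, E2F3, TFDP1 and RBL1). Of all 27305 genes with such a window, 3.99% held one of them, and 3.31% of all 35116 windows did. The windows of E2F1, E2F2, E2F3 and RBL1 are shown 5′ to 3′ on the strand of the gene because these genes carry the letters close to the start yet differed in response, with the matches in capitals.
E2F1 (chr20:33686336-33686635, minus strand): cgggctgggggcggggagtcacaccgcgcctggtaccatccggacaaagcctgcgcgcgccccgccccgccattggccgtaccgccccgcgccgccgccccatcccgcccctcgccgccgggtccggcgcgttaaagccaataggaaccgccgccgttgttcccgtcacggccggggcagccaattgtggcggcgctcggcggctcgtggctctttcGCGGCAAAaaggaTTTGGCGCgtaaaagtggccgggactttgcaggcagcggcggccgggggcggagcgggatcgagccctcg
RBL1 (chr20:37095948-37096247, minus strand): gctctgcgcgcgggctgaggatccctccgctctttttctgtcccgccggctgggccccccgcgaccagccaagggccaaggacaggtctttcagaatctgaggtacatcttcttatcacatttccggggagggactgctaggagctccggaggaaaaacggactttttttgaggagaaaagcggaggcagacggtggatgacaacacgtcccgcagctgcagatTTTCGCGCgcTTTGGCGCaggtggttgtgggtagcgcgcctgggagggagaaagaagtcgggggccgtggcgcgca
E2F3 (chr6:20401629-20401928, plus strand): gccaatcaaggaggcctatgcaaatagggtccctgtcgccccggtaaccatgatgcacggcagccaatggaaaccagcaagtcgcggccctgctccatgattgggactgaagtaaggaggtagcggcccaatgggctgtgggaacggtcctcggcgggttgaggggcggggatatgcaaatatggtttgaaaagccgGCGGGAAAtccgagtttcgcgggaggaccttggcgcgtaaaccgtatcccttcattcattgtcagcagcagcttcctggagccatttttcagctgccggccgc
E2F2 (chr1:23531184-23531483, minus strand): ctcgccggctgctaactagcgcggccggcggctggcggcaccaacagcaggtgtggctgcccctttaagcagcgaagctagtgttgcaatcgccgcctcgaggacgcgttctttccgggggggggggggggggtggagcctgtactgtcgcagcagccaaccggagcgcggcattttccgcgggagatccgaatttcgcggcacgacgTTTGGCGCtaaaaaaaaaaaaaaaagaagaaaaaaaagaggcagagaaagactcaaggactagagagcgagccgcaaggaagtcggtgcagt

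In the E2F1 window the matches began 33 and 20 bases before the start site, and in the RBL1 window 26 and 16 bases before it. The single matches of E2F3 and E2F2 began 53 and 42 bases before the start, and that of TFDP1 120 bases before it. The windows of E2F4, E2F7 and RBL2 held none of these letters. The cell cycle homology region, written here as TTTGAA or TTCGAA on either strand, was found in the windows of E2F3 and RBL2, and in 19.5% of all genes. The ETS letters CCGGAAG, a form of the sequence that ELF4 and its relatives bind, were found in E2F7 alone among the 9 genes searched. Of all genes, 12.2% held them. Shorter or other forms of an ETS site were not searched, so the other windows are not shown to lack one. The E2F7 window is shown with these ETS letters in capitals.
E2F7 (chr12:77065520-77065819, minus strand): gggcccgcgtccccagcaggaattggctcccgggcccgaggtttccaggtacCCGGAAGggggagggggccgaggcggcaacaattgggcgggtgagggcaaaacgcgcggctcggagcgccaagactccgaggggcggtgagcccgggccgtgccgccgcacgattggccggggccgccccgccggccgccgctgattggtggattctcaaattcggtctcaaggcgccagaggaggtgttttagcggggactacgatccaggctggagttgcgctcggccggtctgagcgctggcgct

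The deposited values are normalised read counts, and whole reads could be recovered from them, 23770924 to 25408746 per ELF4 siRNA library and 23148635 to 38097986 per control library. ELF4 fell to 11.1% of its control level in the libraries labelled ELF4 siRNA (log2 fold change -2.96, limma adjusted p = 5.38e-07). Each ELF4 siRNA library held only 3 to 5 ELF4 reads and each control library only 34 to 66, so the gene was low in controls as well. The log2 fold change ranged from -3.18 by DESeq2 to -1.99 with a pseudocount of 8. Adrenergic neuroblastoma markers, MYCN highest among them, summed to 146848 to 159165 normalised reads after ELF4 siRNA and to 149329 to 159092 in controls, while 2 of the 9 rose and 3 fell. The sums of epithelial markers were 152 to 181 and 139 to 162, and those of blood and endothelial markers 34.1 to 48.3 and 51.4 to 63.1. Schwann and glial markers summed to 245 to 263 after ELF4 siRNA and to 240 to 267 in controls, with SOX10 below 10 normalised reads in every library. Fibroblast markers, THY1 highest among them, summed to 8101 to 8711 after ELF4 siRNA and to 9158 to 9358 in controls, and COL1A2 was below 10 in every library. Of the 7 fibroblast markers tested, 4 rose and 2 fell. Of the 4 tested Schwann and glial markers 1 rose and 2 fell, of the 3 epithelial ones 1 rose and 1 fell, and of the 2 blood and endothelial ones 1 rose and 1 fell. Mitochondrial rows held 5.99% to 6.44% of the signal after ELF4 siRNA and 5.81% to 6.10% in controls. The part of the fibroblast marker sum and of the mitochondrial share in the results below was not tested.

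Across the circuit, 7 of 10 genes fell after ELF4 siRNA and 3 did not pass the test. The genes that fell were RB1, E2F7, RBL2, E2F3, RBL1, E2F1 and E2F8, and those that did not pass were TFDP1, E2F2 and E2F4. A call is a Benjamini-Hochberg adjusted p under 0.05 from limma, fitted to log2(value + 1) over all 20339 tested genes. Of those genes 45.1% were called in either direction, 24.4% lower and 20.7% higher. Fold changes are ELF4 siRNA over control siRNA on that log2(value + 1) scale. The median log2 fold change of the 10 genes was -0.42, beside -0.00419 for all tested genes and -0.37 for all genes called lower. All 10 genes passed the filter on low values, and each rested on 257 to 8889 reads per library. In bulk RNA, fewer cells in a given phase of the cycle and less RNA per cell cannot be told apart. With 3 libraries against 3, the exact two-sided permutation test of 1 gene cannot go below p = 0.1, and it gave that value for the 9 genes whose groups did not overlap and p = 0.5 for E2F4. Groups that do not overlap were found in 53.6% of all tested genes: 28.2% had ELF4 siRNA below control and 25.4% had it above.

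**Figure D1:**
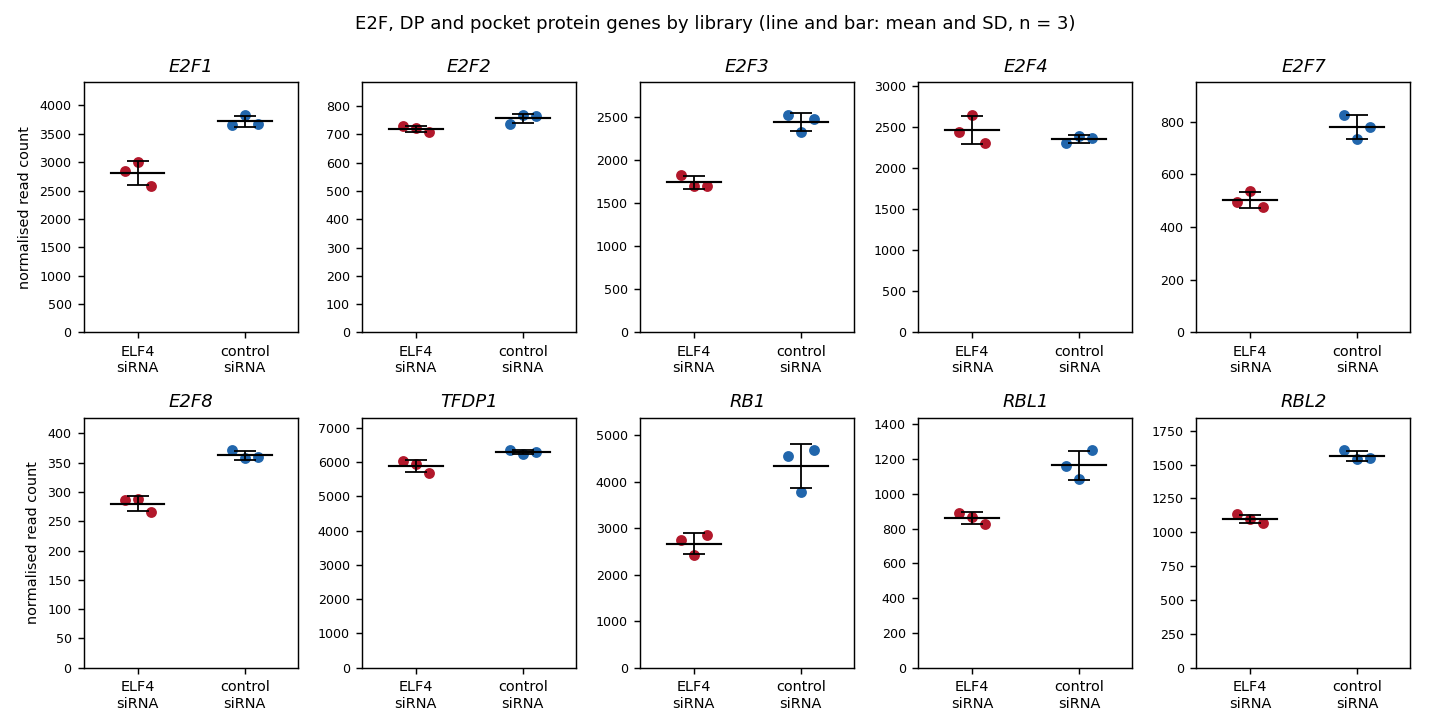
Normalised read count (vertical axis, from 0) of each of the 10 genes in the 3 ELF4 siRNA libraries (red, left) and the 3 control siRNA libraries (blue, right), with lines at the mean and bars of 1 SD. The groups are apart in every panel but E2F4, and the means of RB1 and E2F7 after ELF4 siRNA are the lowest relative to their controls.

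Among the activator E2Fs, E2F1 and E2F3 fell and E2F2 did not pass. E2F1, the factor first cloned as an RB partner, had 2837, 2999 and 2583 normalised reads in ELF4 siRNA replicates 1, 2 and 3, against 3648, 3831 and 3672 in control replicates 1, 2 and 3. Every ELF4 siRNA library was below every control library. The mean was 2806 ± 210 after ELF4 siRNA and 3717 ± 99.7 in controls (SD, n = 3 each), which is 75.5% of control (log2 fold change -0.41, SE 0.05, limma adjusted p = 2.23e-05).

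E2F3, which encodes the activators E2F3a and E2F3b from separate start sites, had 1826, 1703 and 1704 normalised reads after ELF4 siRNA, against 2529, 2328 and 2479 in controls. The highest ELF4 siRNA library was below the lowest control library. Its mean was 1744 ± 71.2 after ELF4 siRNA and 2445 ± 104 in controls (log2 fold change -0.49, SE 0.05, limma adjusted p = 2.14e-06). The table has 1 row for the gene, so the E2F3a and E2F3b transcripts are summed.

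E2F2, the third activator, had 728, 723 and 707 normalised reads after ELF4 siRNA, against 738, 769 and 764 in controls. The groups were apart by only a few reads, since the highest ELF4 siRNA value of 728 stood next to the lowest control value of 738. The log2 fold change was -0.07 with a 95% interval of -0.18 to 0.04 (limma adjusted p = 0.271), so a fall as large as that of E2F1 lies outside the interval. The ratio of E2F1 to E2F2 was 3.90, 4.15 and 3.65 after ELF4 siRNA and 4.95, 4.98 and 4.80 in controls, without overlap (exact permutation p = 0.1, two-sided, the smallest possible). The ratio of E2F3 to E2F2 averaged 2.42 ± 0.08 after ELF4 siRNA and 3.23 ± 0.20 in controls (SD, n = 3 each), also without overlap. Between E2F1 and E2F3 the ratio overlapped, at 1.61 ± 0.13 after ELF4 siRNA and 1.52 ± 0.11 in controls (SD, n = 3 each, exact permutation p = 0.5).

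E2F4, the factor that occupies promoters together with p107 and p130, was the only one of the 10 genes whose groups overlapped. It had 2439, 2645 and 2301 normalised reads after ELF4 siRNA, against 2307, 2394 and 2360 in controls. ELF4 siRNA replicate 3 was below all controls and the other 2 ELF4 siRNA libraries were above them. The log2 fold change was 0.06 with a 95% interval of -0.05 to 0.17 (limma adjusted p = 0.349). The ratio of E2F1 to E2F4 was 1.14 ± 0.02 after ELF4 siRNA and 1.58 ± 0.02 in controls (SD, n = 3 each), and the groups did not overlap.

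The atypical repressors E2F7 and E2F8 both fell. E2F7 had 495, 538 and 477 normalised reads after ELF4 siRNA, against 825, 733 and 780 in controls. Its highest ELF4 siRNA value was well below its lowest control value. The mean was 503 ± 31.2 after ELF4 siRNA and 780 ± 46.0 in controls, or 64.5% of control (log2 fold change -0.63, SE 0.06, limma adjusted p = 2.88e-06). Only 5.03% of all tested genes had a lower log2 fold change.

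E2F8, which can dimerise with E2F7, was the lowest of the 10 genes per kb as well as in reads, at 286, 288 and 266 normalised reads after ELF4 siRNA, against 371, 358 and 360 in controls. The groups did not overlap, and the log2 fold change was -0.37 (SE 0.07, limma adjusted p = 0.000455). The ratio of E2F7 to E2F8 was 1.73, 1.86 and 1.79 after ELF4 siRNA and 2.22, 2.05 and 2.17 in controls, without overlap (exact permutation p = 0.1). The ratio of E2F1 to E2F7, an activator over a repressor that is known to silence it, averaged 5.58 ± 0.16 after ELF4 siRNA and 4.78 ± 0.41 in controls (SD, n = 3 each) and did not overlap.

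TFDP1, which encodes the shared DNA-binding partner DP1, had 6025, 5949 and 5695 normalised reads after ELF4 siRNA, against 6342, 6249 and 6297 in controls. Every ELF4 siRNA library was below every control library, yet the gap was small beside the level. The log2 fold change was -0.10, with a 95% interval of -0.18 to -0.01 that is not adjusted for the number of genes, and the limma adjusted p of 0.0523 missed the threshold. It passed under the filter that keeps means of 100 and above (limma adjusted p = 0.0406), with a replicate block (0.0316) and without control replicate 2 (0.0475), and it ranged from 0.0316 to 0.161 over the alternatives. E2F1 per TFDP1 was 0.476 ± 0.026 after ELF4 siRNA and 0.590 ± 0.020 in controls (SD, n = 3 each).

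**Figure D2:**
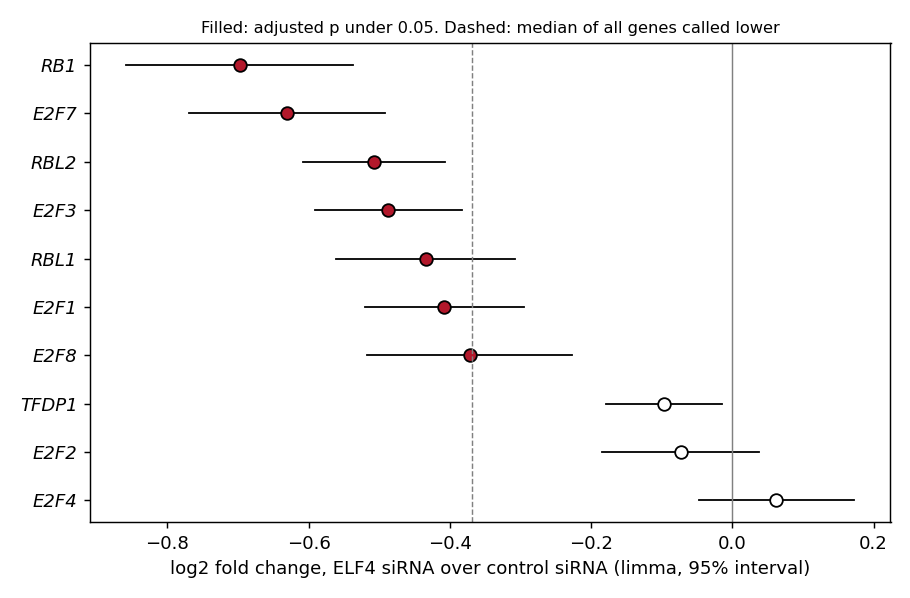
Log2 fold change of each gene, ELF4 siRNA over control siRNA (horizontal axis), with its 95% interval from limma; filled points passed at an adjusted p under 0.05 and the dashed line is the median of all genes called lower. The 7 filled genes lie between -0.70 (RB1) and -0.37 (E2F8), and the 3 open ones between -0.10 (TFDP1) and 0.06 (E2F4).

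All 3 pocket protein genes fell. RB1, the retinoblastoma tumour suppressor, had the lowest log2 fold change of the 10 genes, at 2747, 2420 and 2850 normalised reads after ELF4 siRNA, against 4558, 3793 and 4680 in controls. Replicate 2 was the lowest library in both groups, and even so the highest ELF4 siRNA value was below the lowest control value. The mean was 2673 ± 225 after ELF4 siRNA and 4344 ± 481 in controls, or 61.5% of control (log2 fold change -0.70, SE 0.07, limma adjusted p = 4.21e-06). Of 20339 tested genes, 788 had a lower log2 fold change.

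RBL2, the p130 gene whose product is known to form the DREAM complex with E2F4 in resting cells, had 1132, 1097 and 1070 normalised reads after ELF4 siRNA, against 1605, 1540 and 1549 in controls. Libraries of 1 group lay close together and the groups were far apart. The log2 fold change was -0.51 (SE 0.05, limma adjusted p = 1.07e-06), the smallest adjusted p among the 10 genes. The ratio of E2F4 to RBL2 was 2.24 ± 0.15 after ELF4 siRNA and 1.51 ± 0.06 in controls (SD, n = 3 each), without overlap.

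RBL1, the p107 gene, which is known to be expressed mainly in cycling cells, had 889, 868 and 826 normalised reads after ELF4 siRNA, against 1162, 1083 and 1250 in controls. The groups did not overlap, and the log2 fold change was -0.43 (SE 0.06, limma adjusted p = 3.81e-05). The ratio of RB1 to RBL1 was 3.09, 2.79 and 3.45 after ELF4 siRNA and 3.92, 3.50 and 3.75 in controls, where the highest ELF4 siRNA value was just below the lowest control value (exact permutation p = 0.1). RB1 over RBL2 overlapped between the groups, at 2.43 ± 0.23 after ELF4 siRNA and 2.78 ± 0.29 in controls (SD, n = 3 each, exact permutation p = 0.2), and so did RBL1 over RBL2 (exact permutation p = 0.4).

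E2F1 over RB1, a factor relative to its inhibitor, was 1.03, 1.24 and 0.906 after ELF4 siRNA and 0.800, 1.01 and 0.784 in controls. The groups overlapped (exact permutation p = 0.2). In all, 12 ratios between members were computed, chosen after the values were seen, and 8 did not overlap. No share was computed for other pairs of genes, and 53.6% of single genes did not overlap, so the count is a description of these 12 ratios. The smallest possible p of 0.1 leaves no room for adjustment over the 12.

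**Figure D3:**
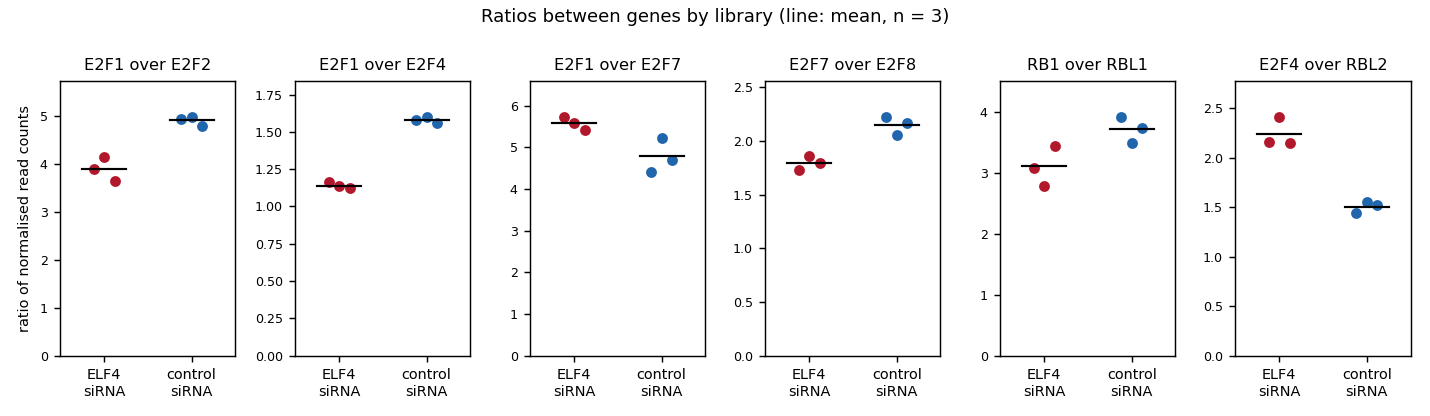
Ratios of normalised read counts between pairs of genes (vertical axes, from 0) in the 3 ELF4 siRNA libraries (red, left) and 3 control libraries (blue, right), with lines at the means. E2F1 over E2F7 and E2F4 over RBL2 were higher after ELF4 siRNA and the other 4 ratios shown were lower, without overlap in any of the 6 panels. All 6 come from the 8 of 12 computed ratios that did not overlap, and the overlapping ones are not shown.

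Levels were compared between genes as normalised reads per kb of merged exons of the GENCODE 29 basic transcripts. In controls the order was TFDP1 (2378 ± 17.6), E2F1 (1485 ± 39.8), E2F4 (1123 ± 21.1), RB1 (867 ± 96.0), E2F3 (474 ± 20.2), RBL2 (319 ± 7.16), RBL1 (200.4 ± 14.3), E2F2 (146 ± 3.23), E2F7 (136 ± 8.01) and E2F8 (92.4 ± 1.86; SD, n = 3 each). Only E2F2 and E2F7 overlapped among neighbours in this order. After ELF4 siRNA, E2F4 (1174 ± 82.5 per kb) stood above E2F1 (1121 ± 83.7 per kb), while all other ranks were as in controls. Only these neighbours overlapped when values were compared across libraries. Within each ELF4 siRNA library E2F4 was above E2F1, at 1164 against 1133, 1262 against 1198 and 1098 against 1032 per kb. Transcript choice limits such comparisons, because the reads of a gene may not spread over all of its annotated exons.

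**Figure D4:**
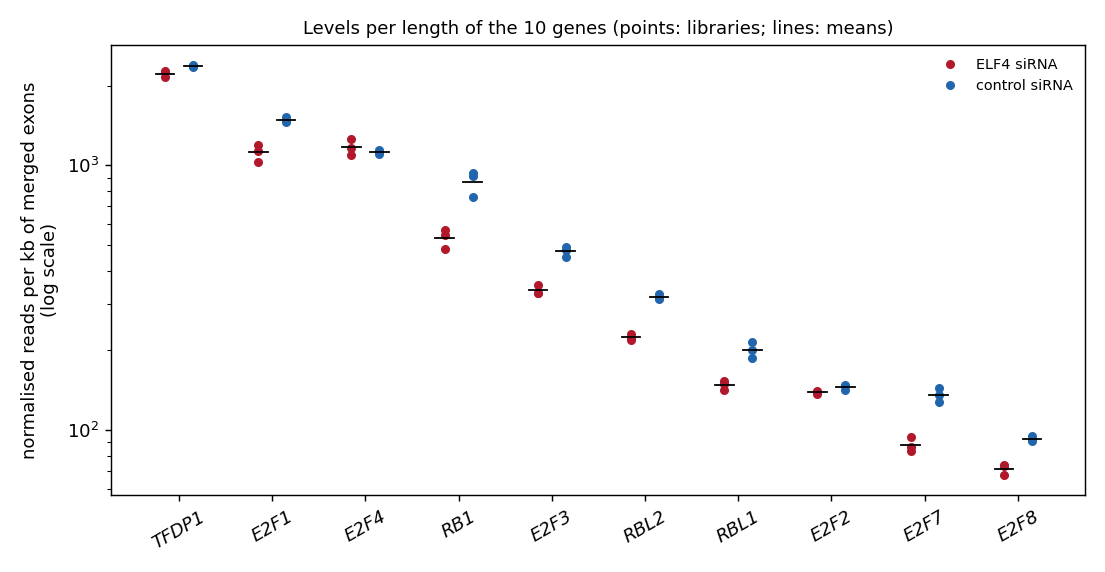
Normalised reads per kb of merged exons (vertical axis, log scale) of the 10 genes, ordered by their control level, in ELF4 siRNA libraries (red) and control libraries (blue), with lines at the means. TFDP1 is highest in both groups and E2F8 lowest, and E2F1 is above E2F4 only in controls.

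E2F5 averaged 290 reads per kb after ELF4 siRNA and 268 in controls, and E2F6 364 and 376, and both are left out of the sum that follows. Summed per kb over the 6 E2F genes described here, the level was 2931 ± 175 after ELF4 siRNA and 3455 ± 32.1 in controls (SD, n = 3 each). E2F1 made up 38.2% ± 0.59 of that sum after ELF4 siRNA and 43.0% ± 0.76 in controls, whereas E2F4 made up 40.1% ± 0.66 after ELF4 siRNA and 32.5% ± 0.34 in controls. The repressors E2F7 and E2F8 held 2.99% ± 0.06 and 2.44% ± 0.06 after ELF4 siRNA, against 3.93% ± 0.27 and 2.68% ± 0.08 in controls. Over the pocket protein genes the sum per kb was 906 ± 43.2 after ELF4 siRNA and 1386 ± 113 in controls. RB1 held 58.8% ± 2.40 of it after ELF4 siRNA and 62.4% ± 1.94 in controls, with overlap between the groups.

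The other family members in the table did not pass the test. E2F5, a relative of E2F4, had 643, 543 and 560 normalised reads after ELF4 siRNA, against 536, 545 and 532 in controls (log2 fold change 0.11, limma adjusted p = 0.204). E2F6, a repressor that acts without pocket proteins, averaged 1255 ± 46.6 after ELF4 siRNA and 1296 ± 41.5 in controls (SD, n = 3 each; log2 fold change -0.05, limma adjusted p = 0.479). TFDP2, which encodes DP2, averaged 843 ± 66.6 after ELF4 siRNA and 854 ± 18.6 in controls (log2 fold change -0.02, limma adjusted p = 0.806). A second row joins TFDP2 with the overlapping RP11-271K21.11 and averaged 1332 ± 57.8 after ELF4 siRNA and 1199 ± 4.72 in controls (log2 fold change 0.15, limma adjusted p = 0.0204), so the level of TFDP2 is uncertain. The call of the joined row was lost without ELF4 siRNA replicate 1 (limma adjusted p = 0.0962) or 2 (0.0513), without control replicate 1 (0.0664) or 3 (0.0510), and without the trend (0.0611). TFDP3 was not analysed here.

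The MuvB core joins pocket proteins and E2F4 in the DREAM complex, and joins B-MYB and FOXM1 later in the cycle. Of its 8 listed genes, LIN9, LIN52, MYBL1, MYBL2 and FOXM1 fell, and LIN37, LIN54 and RBBP4 did not pass, beside the 24.4% of all tested genes called lower. The median log2 fold change was -0.43. MYBL2, which encodes B-MYB and is itself a classical E2F target, had 3582, 3724 and 3700 normalised reads after ELF4 siRNA, against 6559, 6364 and 6429 in controls. The groups were far apart (log2 fold change -0.81, limma adjusted p = 2.69e-09), and its log2 fold change was below that of each of the 10 genes. FOXM1, a mitotic activator, averaged 3607 ± 192 after ELF4 siRNA and 4803 ± 149 in controls (log2 fold change -0.41, limma adjusted p = 5.95e-06). LIN52, the subunit through which p130 joins the complex, averaged 357 ± 7.25 after ELF4 siRNA and 496 ± 34.7 in controls (log2 fold change -0.47, limma adjusted p = 5.88e-05).

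Among the cyclins and kinases that phosphorylate pocket proteins, 7 of 8 tested genes fell and CCNE2 did not pass, beside 24.4% of all tested genes called lower. The list's median log2 fold change was -0.25. CCND2 was not analysed here. CCND3, a D-type cyclin, had 821, 856 and 749 normalised reads after ELF4 siRNA, against 1316, 1399 and 1233 in controls (log2 fold change -0.70, limma adjusted p = 7.61e-07). CCNA2, the S-phase cyclin and an E2F target, averaged 2905 ± 93.3 after ELF4 siRNA and 4661 ± 212 in controls (log2 fold change -0.68, limma adjusted p = 4.93e-08). CDK2, its kinase, averaged 913 ± 5.26 after ELF4 siRNA and 1313 ± 74.4 in controls (log2 fold change -0.52, limma adjusted p = 2.26e-06).

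Of 7 tested inhibitors of those kinases, CDKN1A and CDKN1B fell and the 5 others did not pass, a share near the 24.4% of all tested genes called lower. The list's median log2 fold change was 0.00644. CDKN1A, the p21 gene, had 234, 213 and 319 normalised reads after ELF4 siRNA, against 456, 531 and 498 in controls (log2 fold change -0.97, limma adjusted p = 1.37e-05). CDKN1B, the p27 gene, averaged 1820 ± 107 after ELF4 siRNA and 2164 ± 138 in controls (log2 fold change -0.25, limma adjusted p = 0.00253). CDKN1C was near the filter, at 14.5 to 19.8 normalised reads after ELF4 siRNA and 11.3 to 16.0 in controls (limma adjusted p = 0.295).

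Pocket proteins silence promoters by bringing histone-modifying enzymes. Of 11 such corepressor genes, 5 fell (EHMT2, HDAC1, RBBP7, SUV39H1 and SUV39H2), SIN3B rose with a log2 fold change of 0.24 (limma adjusted p = 0.000573) and 5 did not pass. Over all tested genes 24.4% were called lower and 20.7% higher, 45.1% together, so the share of these genes called in either direction is near that of all genes. HDAC1, a histone deacetylase, averaged 1540 ± 54.8 after ELF4 siRNA and 1935 ± 72.2 in controls (log2 fold change -0.33, limma adjusted p = 6.82e-05). SUV39H2, a histone methyltransferase, had a log2 fold change of -0.38 (limma adjusted p = 8.00e-05) and RBBP7, a histone-binding subunit, one of -0.21 (limma adjusted p = 0.000385). Of the 3 genes for turnover of E2F proteins, SKP2 and CCNF fell and FZR1 did not pass, beside 24.4% of all tested genes called lower. SKP2, an F-box protein whose gene is itself controlled by E2F, had 5531, 5468 and 5393 normalised reads after ELF4 siRNA, against 8805, 7802 and 8788 in controls (log2 fold change -0.63, limma adjusted p = 1.65e-07). CCNF, the cyclin F gene, averaged 1574 ± 80.6 after ELF4 siRNA and 2344 ± 44.8 in controls (log2 fold change -0.58, limma adjusted p = 4.15e-07). FZR1, an activator of the APC/C ligase, averaged 1416 ± 25.1 after ELF4 siRNA and 1476 ± 67.8 in controls (limma adjusted p = 0.355).

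Most genes listed as G1/S or G2/M targets were lower as well. Whether their fall followed from that of the members was not tested. Of 50 tested G1/S genes known to be activated by E2F, 48 fell, and CCNE2 and SLBP did not pass. The median of the list was -0.41 on the log2 scale, where 24.4% of all tested genes were called lower. Among those with the smallest adjusted p were PCNA, the sliding clamp (-0.54, limma adjusted p = 6.01e-08), and CHEK1, a checkpoint kinase (-0.73, limma adjusted p = 8.13e-08). CHEK1 averaged 1625 ± 76.4 normalised reads after ELF4 siRNA and 2690 ± 133 in controls (SD, n = 3 each). All 31 tested G2/M genes known to be bound by MuvB complexes fell, with a median of -0.55, from BIRC5 (-1.69) to the smallest fall of -0.30. TOP2A (-1.23) and PRC1, which bundles spindle microtubules (-0.86), followed BIRC5 by adjusted p. Lower cell cycle lists were already known in these data when these lists were written, so the counts are a description and not independent evidence, and CCNA2, CCNE1 and CCNE2 stand in more than 1 list.

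Apoptosis genes that E2F1 is known to activate moved both ways. Of 9 tested, 6 fell, 2 rose and BCL2L11 did not pass, beside 24.4% lower and 20.7% higher over all tested genes, so the share that rose is near that of all genes. Under the alternatives 4 to 6 fell, with 4 by DESeq2. The list's median log2 fold change was -0.27. TP73, a p53 relative, had 221, 221 and 169 normalised reads after ELF4 siRNA, against 443, 375 and 397 in controls (log2 fold change -0.995, limma adjusted p = 3.29e-06). BBC3, which encodes the BH3-only protein PUMA, had 297, 291 and 356 normalised reads after ELF4 siRNA, against 178, 182 and 163 in controls (log2 fold change 0.85, limma adjusted p = 4.25e-06). HRK, another BH3-only gene, averaged 383 ± 40.5 after ELF4 siRNA and 47.5 ± 7.30 in controls (SD, n = 3 each; log2 fold change 2.99, limma adjusted p = 9.62e-10).

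**Figure D5:**
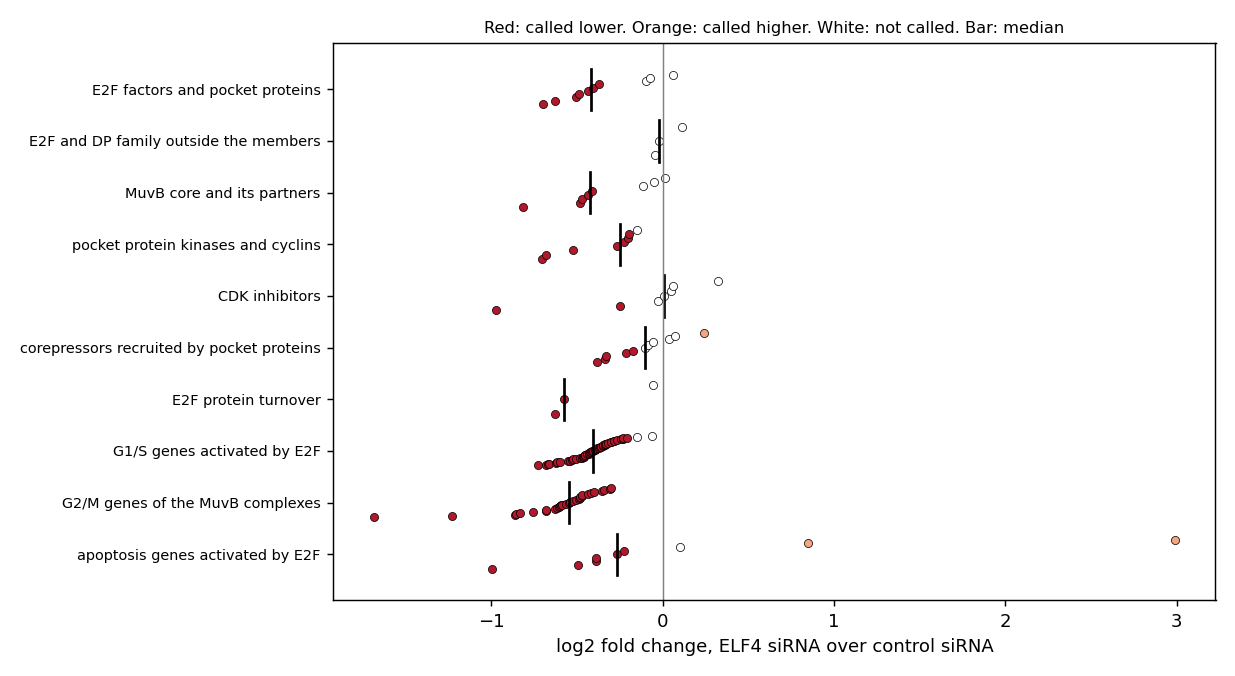
Log2 fold change of every tested gene (points, horizontal axis) in the 10 genes described here and in each of 9 lists of their partners, regulators and targets, with bars at the medians; red is called lower, orange called higher and white not called. Every tested gene of the G1/S and G2/M lists lies below 0, whereas the other E2F and DP genes lie near 0 and BBC3 and HRK lie above it.

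The 7-mers ACCTGTC and CCTGTCA, picked in earlier work on these data for their frequency in genes with large falls, were looked for in the 3′ UTR of the GENCODE 29 transcript with the longest coding sequence. Neither was present in any of the 10 genes. Either was present in 18.1% of 9813 genes that had an annotated 3′ UTR and averaged 100 or more normalised reads. At that share, their absence from 10 genes is a description only, and no link to the response of these genes was tested.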

How the data were processed

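BE-(2)-C cells were sequenced as polyA-selected RNA, 3 libraries per siRNA. The tools named per the submitters' processing notes are featureCounts, TopHat and DESeq2, with build hg19. Their versions and roles, the annotation, any filter and the strand setting were not given in the sources used here, so reads of a gene and of an antisense partner may be mixed. The deposited signal is a normalised read count per gene: 100% of values were whole multiples (within 0.001) of what 1 read is worth in its library, so the authors divided reads by a size factor per library. None of the 10 genes appears in a row with joined names.

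The values were not raw counts, so genes were tested with limma, with a trend in the moderation, on log2(value + 1), over genes that reached 10 in 3 or more libraries, with Benjamini-Hochberg adjustment. Alternatives covered the pseudocount, the filter, the scaling, no trend, edgeR and DESeq2 on recovered reads, a replicate block and leaving out each library. The members, lists, ratios and motifs were chosen with earlier results of these data known. Named were ELF4, the members, and the 3 genes per list with the smallest adjusted p, or all genes of lists of 4 or fewer. The genes listed as not called and SIN3B were named after their values were seen. Some genes that the rule names are left out of the text. Promoters are RefSeq's on GRCh38.p14, and transcripts are GENCODE 29. The limma step was tested on simulated data (ELF4 siRNA against control siRNA, 20358 genes): it called 73.7% of 99 genes shifted by a log2 change of 0.5 and 94.9% of 99 shifted by 1, and 3.47% of its calls were false. In the simulation every gene had the same spread beyond counting noise (4.15%), and only those genes were shifted. In the data 45.1% of tested genes were called and spread differs between genes. The simulated rates may therefore not hold for these data. Software was Python 3.11.15 (pandas 2.3.3, scipy 1.17.1, numpy 2.4.6, matplotlib 3.10.9) and R 4.3.3 (DESeq2 1.42.0, limma 3.58.1, edgeR 4.0.16).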

Additional observations from a re-analysis of the deposited data

How the results depend on the processing

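The same 7 members were lower with an adjusted p under 0.05 under all 16 alternatives. Of 160 member fold changes under the alternatives, 157 had the direction and the call reported. The other 3 belong to TFDP1, which passed under the filter that keeps means of 100 and above (log2 fold change -0.10), with the replicate block (-0.10) and without control siRNA replicate 2 (-0.10). Its log2 fold change without 1 library was -0.11 to -0.073. All counts of calls stayed within 1.5 times of their values, with 7658 to 9070 genes called in all when 1 library was left out, 9261 by edgeR and 7521 by DESeq2. TFDP2, which passed nowhere, had log2 fold changes of -0.076 to 0.038 when 1 library was left out, the positive value of 0.038 without ELF4 siRNA replicate 2, where the limma adjusted p was 0.647. The cause was not tested.

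Same-numbered libraries deviated together only weakly (correlations 0.029, 0.075 and 0.041, against -0.057 to 0.015 for other pairs), so the numbers are not taken to pair the libraries, although each library correlated best with its own number. With the replicate block 9910 genes were called, against 9173 without it, and 8 members were lower. At the depth here the members rest on 257 or more reads per library, and ELF4 on 3 to 5 reads in the ELF4 siRNA libraries.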
